A study of Mus musculus with 8 samples.

Results

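Of 16399 peaks that the RBM45 iCLIP libraries of WT mHiPPoE-2 cells shared, 585 (3.57%) lay in coding sequence, on 514 genes. RBM45 binds RNA through RNA recognition motifs. A peak was counted here when its midpoint fell in a coding exon on its own strand and more than 150 nt, along the transcript, from the stop codon in every transcript of the GENCODE M21 basic set (mm10). A further 73 shared peaks lay in coding sequence within 150 nt of a stop codon and were left aside. Within the shared list the rule used position alone and no measured strength. The list itself holds only peaks that were called in both replicates.

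In iCLIP, UV light links a protein to the RNA it touches, the protein is purified, and the attached RNA fragments are sequenced. The cells, a transformed mouse hippocampal neuron line of strain Crl:CFW(SW)-024, were transduced with a lentivirus for FLAG-HA-tagged mouse RBM45, and an antibody against HA was used to purify it. All groups of the series carry that tagged protein, so that binding was measured for a transduced RBM45. The series holds 8 libraries in 4 groups of 2, which are CLIP and size-matched input from WT cells and the same from Mettl3 knockout cells. Values given here were taken from the WT CLIP libraries, replicates 1 and 2, and from the deposited list of their shared peaks. Nothing in the labels says whether the replicates were separate cultures, and the number of reads behind the peaks is unknown. With 1 condition and 2 libraries there was no comparison between groups and no test. Intervals of shares are Wilson 95% intervals with peaks as the unit, and they cover counting error only.

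Many RNA-binding proteins that act in splicing contact introns of pre-mRNA, and some contact exons. Contacts in coding sequence are made with exons, in the nucleus before splicing or on the spliced mRNA afterwards. Coding exons of vertebrates are mostly short and internal, with a few very long ones. METTL3 places m6A on mRNA at a consensus that centres on an AC step, with much of it near stop codons and in long exons. The m6A consensus DRACH (D stands for any base but C, R for a purine and H for any base but G) was searched on the transcript strand only. So were the core GAC, which a DRACH site may contain, the U-rich motif UUUUU and the purine motif GAAGAA. Read in frame, GAC is a codon for aspartate.

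Several of the strongest coding peaks contained repeated GAC. Examples are shown as 30 nt each, read from GENCODE M21 transcripts (mm10, 5′ to 3′), with GAC in capitals. In peaks wider than 30 nt the stretch with the most GAC was chosen, so that these lines show where GAC lies and not how often it occurs. The first set comes from 5 consecutive exons of Thbs1, on the plus strand at chr2:118122446-118122475, chr2:118120297-118120326, chr2:118122888-118122917, chr2:118120869-118120898 and chr2:118121149-118121178.
Thbs1 exon 17: ctgGACtctGACtcaGACctcatagggGAC
Thbs1 exon 14: GACgatGACaacGACaagatccccgatGAC
Thbs1 exon 18: GACgcctgcaaaGACGACtttGACcatGAC
Thbs1 exon 15: tatGACtatGACagagatgatgtgggaGAC
Thbs1 exon 16: gtttacaacgtgGACcagaggGACacgGAC
The second set comes from other genes among the 20 peaks with the highest lower score, at chr1:34190516-34190545 on the plus strand (Dst), chr17:71800822-71800851 on the plus strand (Clip4), chr1:133658119-133658148 on the minus strand (Gm38394) and chr4:64017211-64017240 on the minus strand (Tnc).
Dst exon 36: GACGACcgtGACtgtttgcaacccgagGAC
Clip4 exon 4: gaacgatagaGACgGACtGACgGACatGAC
Gm38394 exon 1: cacctGACtgctGACatatgGACtcatGAC
Tnc exon 2: ctgtgatGACGACtacactggggaaGACtg
Of the 12 peaks with a fold of at least 5 in both replicates, 9 had a GAC. Those without were on Fgg, Gpx4 and Brd2, and peaks of lower fold on Igsf3, Rlf and Tnc also had none. The last set shows a pair of them, at chr3:83012824-83012853 (Fgg) and chr10:80054703-80054732 (Gpx4), both on the plus strand.
Fgg exon 8: tgcctacttcattggtggagatgccgggga
Gpx4 exon 3: tttcgtgtgcatcgtcaccaacgtggcctc

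As a group, the shared coding peaks were weak. The deposited fold (pileup over background, from the authors' peak caller) had a median of 1.95 in replicate 1 and 2.38 in replicate 2. The median of the lower of both folds was 1.91 (quartiles 1.86 and 2.59), beside 1.92 for the 14338 shared peaks in introns and 2.38 for the 969 in 3' UTRs. Folds were below 2 in both replicates for 198 coding peaks (33.8%), against 37.4% of all shared peaks and 20.4% of those in 3' UTRs. Most were also narrow, since 414 (70.8%) had the least width of 30 nt, against 68.1% of all shared peaks. Only 8 (1.37%) were wider than 100 nt, against 3.57% of all shared peaks, and 5 of these were on Thbs1. Intervals listed on both strands made up 9 of the 585 (1.54%) and 2.52% of all shared peaks.

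A fold of at least 5 in both replicates was reached by 12 coding peaks on 8 genes. That is 2.05% (1.18 to 3.55), against 5.54% of all shared peaks, 5.56% (5.20 to 5.95) of those in introns and 6.3% (4.93 to 8) of those in 3' UTRs. The share in coding sequence thus lay below those in introns and 3' UTRs. In 5' UTRs it was 6% (2.78 to 12.5) of 100 shared peaks, an interval that overlaps that of coding sequence. The intervals take no account of peaks that share a gene, and 5 of the 12 were on Thbs1. A fold of at least 10 in both was reached by 2 coding peaks (0.342%), on Thbs1 and Fgg, against 1.39% of all shared peaks. The highest lower fold was 15.7 in coding sequence, 44.8 in 3' UTRs and 80.7 in introns.

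**Figure D1:**
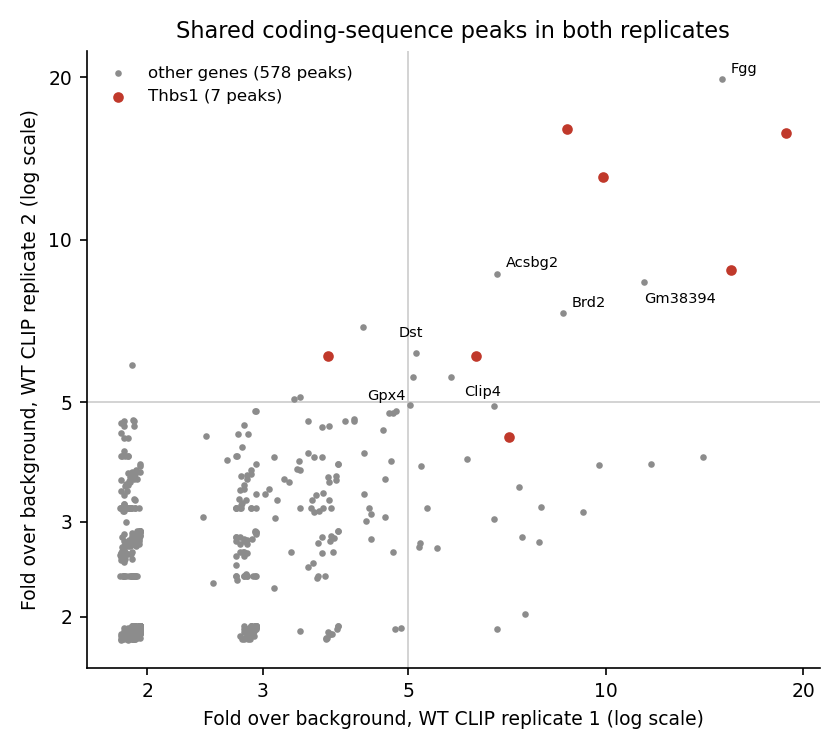
Deposited fold over background of each of the 585 shared coding peaks in WT CLIP replicate 1 (x axis) and replicate 2 (y axis), both on log scales, with grey lines at 5. The 7 peaks of Thbs1 are in red; 5 of them and 7 peaks of other genes, which are named, lie above 5 on both axes, while most points sit in bands at low fold.

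The order of the folds agreed little between the replicates, with a Spearman's rho of 0.28 over the 585 pairs, which share genes and 2 libraries. Folds were within 2-fold of each other in 545 of 585 (93.2%), higher in replicate 1 for 345 and higher in replicate 2 for 240. With quartiles of the lower fold at 1.86 and 2.59, most pairs had little room to differ by more. Taken alone, replicate 1 put 32 of them at a fold of 5 or more and replicate 2 put 17. The midpoints of the paired peaks lay a median of 7 nt apart, and 39 pairs had identical ends. The widest disagreements were on Pdia6, a protein disulfide isomerase (7.52 in replicate 1 and 2.02 in replicate 2), Dzank1 (6.83 and 1.90), Lrp6, a Wnt co-receptor (14.1 and 3.95), Prkg2, a cGMP-dependent kinase (1.89 and 5.86) and Sipa1l2 (11.7 and 3.84). The higher fold was in replicate 1 for 4 of those 5 peaks.

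How often a coding peak was shared at all depended on its fold. Of 13456 replicate 2 peaks that met the same rule, 585 (4.35%, 4.02 to 4.71) were in the shared list, against 4.76% of all replicate 2 peaks, 4.65% (4.58 to 4.73) in introns, 8.19% (7.71 to 8.70) in 3' UTRs, 6.1% in 5' UTRs and 4.79% in coding sequence within 150 nt of a stop codon. At a replicate 2 fold below 2 the share was 3.24% in coding sequence, 3.3% in introns and 4.24% in 3' UTRs. At a fold of 5 or more it was 20.2% (17 of 84, 13 to 30) in coding sequence, 38.4% (113 of 294, 33.1 to 44.1) in 3' UTRs and 52.5% (1064 of 2025, 50.4 to 54.7) in introns. Strong coding peaks of replicate 2 were in the shared list less often than strong intronic or 3' UTR peaks, while the share of weak ones lay close to that of introns. The class at 5 or more has no upper limit, so that the regions were not compared at equal fold. Among shared peaks the lower fold reached 80.7 in introns, 44.8 in 3' UTRs and 15.7 in coding sequence. Several of the 17 were on Thbs1, and the intervals take no account of peaks that share a gene. These fold classes were chosen after the values were seen.

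**Figure D2:**
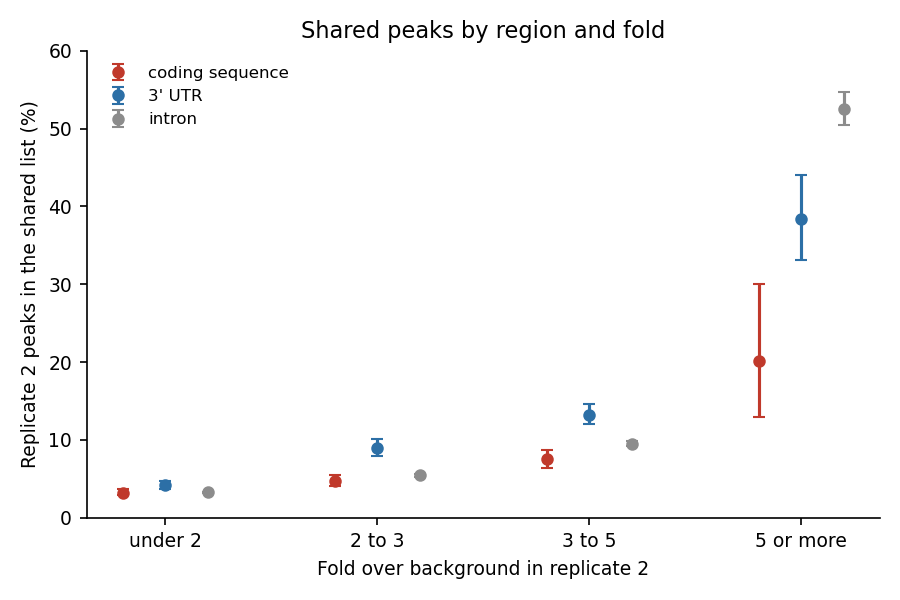
Share of WT CLIP replicate 2 peaks in the shared list (y axis, percent) by their fold in replicate 2 (x axis), for coding sequence, 3' UTRs and introns, with Wilson 95% intervals over peaks. The share rises with fold in each region, to 20.2% in coding sequence against 38.4% in 3' UTRs and 52.5% in introns at a fold of 5 or more.

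Thbs1 held more of these peaks than any other gene, 7 of 585. It encodes thrombospondin 1, a secreted matrix glycoprotein that binds calcium through aspartate-rich type 3 repeats towards its carboxyl end. In exon 17 the shared peak spanned 243 nt, chr2:118122442-118122684, and the fold was 18.9 in replicate 1 and 15.7 in replicate 2. In exon 14 the folds were 9.92 and 13.1, and in exon 18 they were 8.74 and 16.04. These peaks were wide where most were 30 nt, and each covered nearly its whole exon. In exon 15 the folds were 15.5 and 8.78, and in exon 16 they were 6.34 and 6.09. Exons 13 and 20 held weaker members, with 7.12 and 4.30 in exon 13 and 3.77 and 6.09 in exon 20.

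Coverage by peaks was uneven along Thbs1, and highest over the same exons in both libraries. In replicate 1 the peaks covered between 88.0% and 100% of each of exons 14 to 18, and in replicate 2 between 93.4% and 100%. Exons 1 to 10 had 0% under peaks in replicate 2. In replicate 1 they had 52.0% in exon 6, 23.6% in exon 5, 17.8% in exon 10, 5.36% in exon 3 and 0% in the others. Exon 13 had 71.7% in replicate 1, with a highest fold of 10.1, and 14.2% in replicate 2, with 4.30. Exons 11, 12, 19, 20 and 22 were covered in both replicates, to between 19.6% and 39.8% in replicate 1 and between 17.7% and 50% in replicate 2, and exon 21 only in replicate 2, to 29.3%. Each replicate had 1 intronic peak on the gene. Of its 12 shared peaks, 7 lay in coding sequence, 5 in the 3' UTR and 0 in introns. GAC occurred 51 times in the 850 nt of exons 14 to 18, or 60 times per kb. In the 16 other coding exons it occurred 55 times in 2663 nt, or 20.7 times per kb. The grouping of exons 14 to 18 was made after the peaks were seen.

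**Figure D3:**
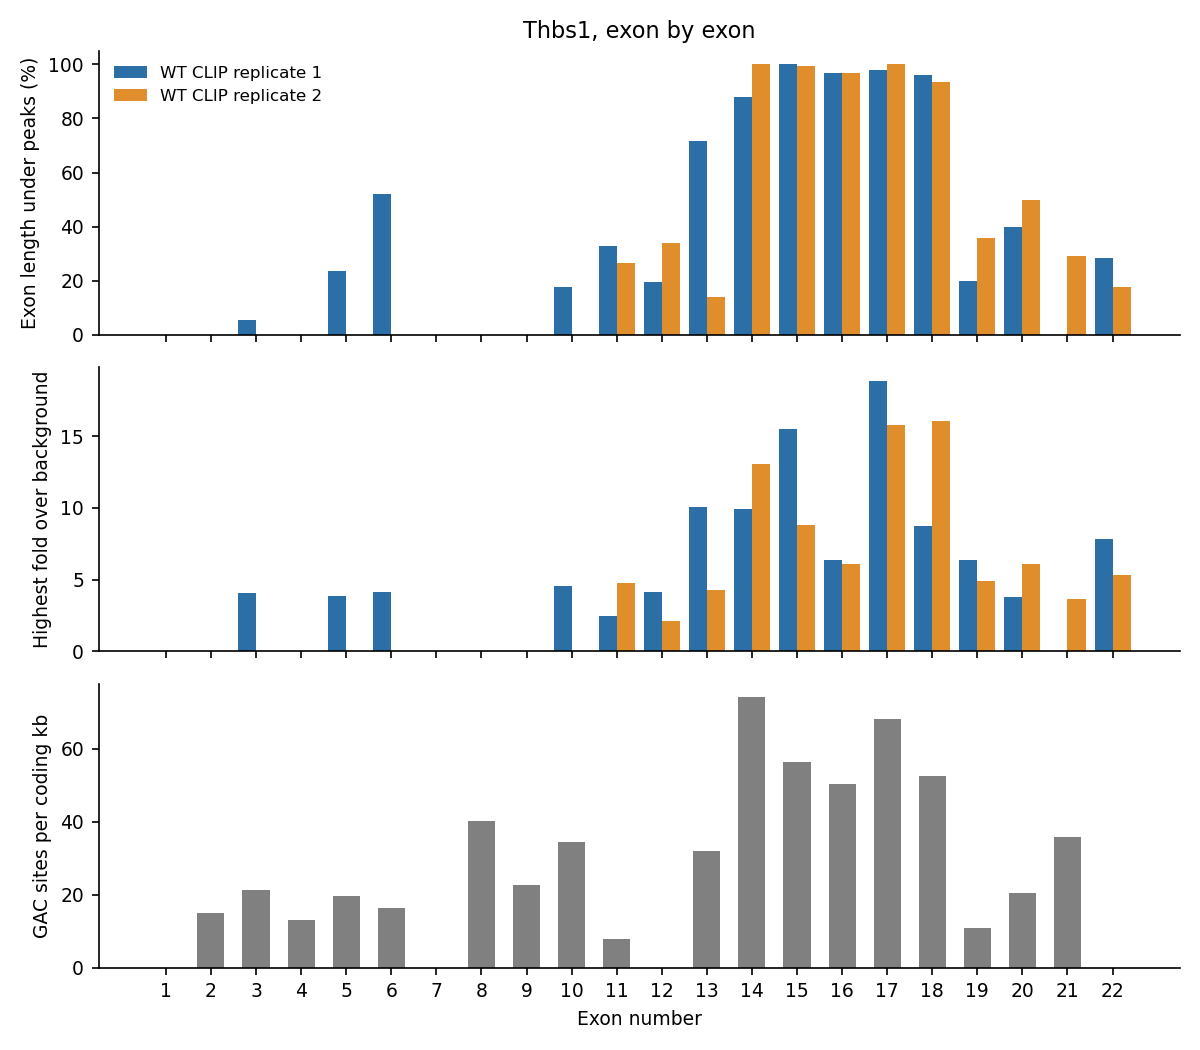
Thbs1 by exon number (x axis): the share of exon length under peaks in percent (top) and the highest deposited fold (middle) in WT CLIP replicates 1 and 2, and GAC sites per kb of the exon's coding sequence (bottom; exon 1 has no coding sequence). Exons 14 to 18 are covered to at least 88.0% in both replicates and hold 60 GAC sites per kb together.

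Other thrombospondin genes were looked at because of Thbs1. Thbs2 had 1 shared coding peak, in its own exon 17 (chr17:14673169-14673198, minus strand), with a fold of 3.90 in replicate 1 and 3.84 in replicate 2. Of the 30 bases under it, 24 were equal to those at the same place in Thbs1 exon 17 (chr2:118122626-118122655, plus strand), which the wide Thbs1 peak also covers; both exons are 235 nt long and 175 of those bases were equal. The lines below show that place in both genes.
Thbs2 exon 17: gatGACaggGACaactgtcggcttgtgttc
Thbs1 exon 17, same place: gatGACagaGACaactgcaggctggtgccc
Thbs3 had 3 shared coding peaks, with folds of 3.42 and 3.18 in exon 18, 7.44 and 2.81 in exon 17, and 1.85 and 4.05 in exon 14. GAC occurred 4 times in the peak of exon 18, 1 time in that of exon 17 and 2 times in that of exon 14. Only the peak in exon 18 is shown, with a stretch of the same kind as those of Thbs1, at chr3:89224312-89224341 on the plus strand.
Thbs3 exon 18: gatGACtttGACaatGACgcagtggttGAC
Thbs4 had 0 coding peaks in either replicate and Comp had 0 and 1. Peaks do not give RNA levels, so that absence of a peak does not separate lack of contact from lack of RNA.

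Tnc, which encodes the matrix glycoprotein tenascin C, held 5 shared coding peaks, 4 of them in exon 2. That exon is long, at 1410 nt, and encodes EGF-like repeats. Its 4 peaks had folds of 4.74 and 4.77, 5.23 and 3.801, 4.39 and 2.79, and 7.92 and 2.75 in replicates 1 and 2. Replicate 1 was higher in 3 of the 4 and level with replicate 2 in the other. Peaks covered 52.0% of exon 2 in replicate 1 and 14.1% in replicate 2. GAC occurred 28.4 times per kb there and 21.3 times per kb in the 24 other coding exons of Tnc. The fifth peak, in exon 13, had folds of 4.27 and 6.90 and contained 0 GAC.

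The other 7 peaks with a fold of at least 5 in both replicates were on 7 genes of unlike function. Fgg encodes the gamma chain of fibrinogen, a plasma protein made in liver. Its peak had a fold of 15.05 in replicate 1 and 19.9 in replicate 2, the highest of these 12 peaks in replicate 2, and the gene held 2 peaks in replicate 1 and 1 in replicate 2 in all. Gm38394 had folds of 11.4 and 8.33, and 30 nt of its peak are identical in transcripts of Zbed6, so that the genes cannot be told apart there. Brd2, a bromodomain protein that binds acetylated histones, had 8.62 and 7.31 at a peak that runs past the end of exon 4. Its second member, in the same exon, had 3.14 and 3.05.

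Acsbg2, an acyl-CoA synthetase gene, had folds of 6.83 and 8.65 and held 2 peaks in each replicate in all. Clip4, named for its CAP-Gly domains, had 5.81 and 5.56 in exon 4 of 94 nt. Dst, which encodes the cytoskeletal linker dystonin, had 5.14 and 6.16 near the middle of exon 36, an exon of 5292 nt in a transcript of 98 exons. Gpx4, a glutathione peroxidase that reduces lipid peroxides, had 5.08 and 5.56, at an interval listed on both strands. Of these genes, Fgg, Acsbg2 and Gpx4 held no other shared peak, whereas Dst held 14 and Clip4 held 3 in introns.

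Next in order of the lower peak score were peaks on Sspo (3.90 and 3.84), Lman1, a cargo receptor of the secretory pathway (6.76 and 4.91), and Igsf3 (9.76 and 3.82). A peak of Rlf, a zinc finger gene, followed with 4.58 and 4.44. Sspo encodes SCO-spondin, a large secreted protein with thrombospondin repeats. None of the 4 reached a fold of 5 in both replicates.

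GAC was more frequent in the strong shared coding peaks than in the weak ones. Peaks with a lower fold below 2 had 15.8 GAC sites per kb (416 peaks), those from 2 to 3 had 17.5 (93 peaks), those from 3 to 5 had 24.7 (64 peaks) and the 12 at 5 or more had 54.9, from 69 sites in 1256 nt. The eligible coding sequence of their transcripts held 25.8 per kb, as an average in which each of the 12 peaks was weighted by its width. Wide peaks thus count most in it, and Thbs1 itself held 30.3 per kb. Among the 64 possible 3-mers, GAC had the largest difference between the class at 5 or more and the class below 2, followed by TGA (42.2 against 20.4 per kb). The rise was not confined to these. Between the same classes CGA had 14.3 against 5.74 per kb, ACG 13.5 against 5.98 and GAT 27.1 against 12.6. These classes and the comparison of 3-mers were chosen after the values were seen and carry no test.

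Thbs1 accounted for 5 of the 12 strong peaks. Without it, the difference between the class at 5 or more and the class below 2 went from 39.1 to 31.1 GAC sites per kb, and GAC still had the largest difference of the 3-mers. In the class at 5 or more, CGA then had 7.04 per kb, ACG 11.7 and GAT 14.1. The 7 remaining strong peaks held 20 sites in 426 nt, or 46.9 per kb. Only 4 of the 7 had a GAC, with 8 sites in Dst, 6 in Gm38394, 5 in Clip4 and 1 in Acsbg2. The transcripts of the 7, also weighted by peak width, held 16.9 per kb. The class from 3 to 5 stayed at 24.7 without Thbs1. Over all 585 peaks, with Thbs1 included, 64.4% of GAC sites (253 of 393) were in frame, against 55.5% in the eligible coding sequence of their transcripts. Thbs1 held 51 of the 393 sites, and the share in frame without it was not computed.

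Strong coding peaks outside the shared list were also read; some of them overlap a peak of the other replicate by less than the list asks for. Coding peaks of replicate 1 outside the shared list had 22.5 GAC sites per kb at a fold of 5 or more (80 peaks) and 15.1 below 2. Those of replicate 2 had 15.2 (67 peaks) and 15.1, so that strong replicate 2 peaks outside the list were no richer in GAC than weak ones. There GAC took the 33rd place of 64 3-mers by difference, and TTT the first, at 26.6 against 12.4 per kb. Outside the list, GAC was thus denser in strong than in weak peaks for replicate 1 and not for replicate 2.

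**Figure D4:**
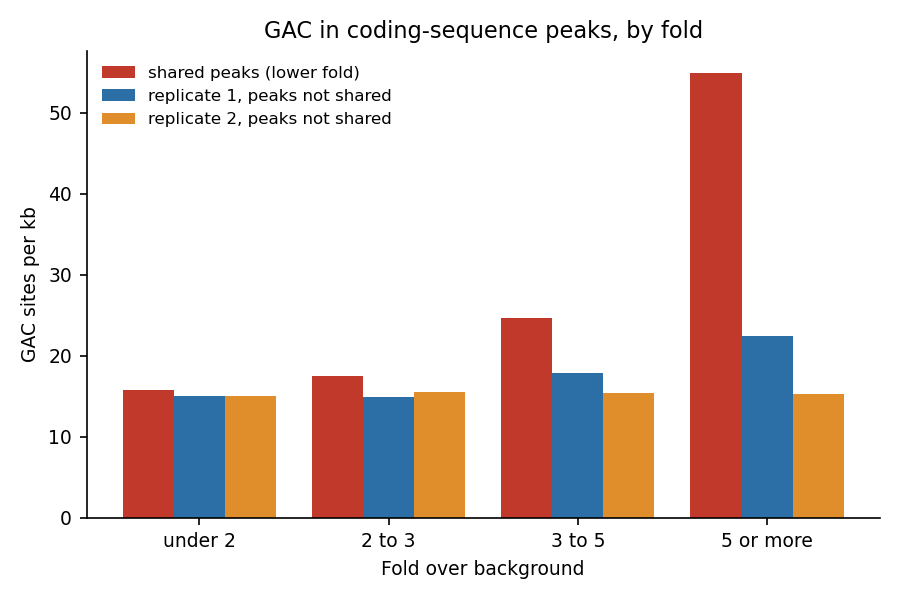
GAC sites per kb of exonic sequence (y axis) by deposited fold over background (x axis; the lower of both replicates for shared peaks), in shared coding peaks and in coding peaks of replicates 1 and 2 outside the shared list. Shared peaks at a fold of 5 or more hold 54.9 per kb, replicate 1 peaks 22.5 and replicate 2 peaks 15.2; bars have no error because sites within a peak are not independent.

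Over all shared coding peaks, motif shares lay near those of the surrounding coding sequence. Sequence was compared for the 446 peaks that lie within their exon, and the background was every window of the same width in the eligible coding sequence of the same transcript. GAC occurred in 189 of 446 (42.4%, 37.9 to 47.0) against 41.5% of windows. DRACH occurred in 232 (52.0%, 47.4 to 56.6) against 49.7%. UUUUU occurred in 10 (2.24%) against 2.17%, and GAAGAA in 12 (2.69%) against 3.47%. For each motif the window share lay within the interval of the peaks.

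Base composition differed a little from the transcripts. The shared coding peaks had 47.0% G or C, against 50.6% in the eligible coding sequence of their transcripts, with 22.7% G against 25.8% and 25.7% T against 22.9%. All coding peaks of replicate 1 had 49.0% G or C and those of replicate 2 had 49.7%. A 30-nt stretch was found without change in another gene for 9 of the 446 peaks, among them Hypk and its neighbour Serf2, and Atg4a-ps and Atg4a.

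By exon class the shared coding peaks lay close to where the coding length of their transcripts lies. For each peak, every eligible coding position of its own transcript was counted evenly, and the result is called the length share. Internal exons over 400 nt held 65 peaks on 60 genes (11.1%, 8.81 to 13.9), beside a length share of 11.2%. In replicate 1 alone the share was 11.3% and in replicate 2 alone 12.7%. Internal exons of any length held 504 peaks (86.2%) with a length share of 84.7%, and last coding exons held 59 (10.1%, 7.90 to 12.8) with 10.3%. Among the shared coding peaks, no preference for long internal exons or for the last coding exon was seen at this number of peaks.

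Exon length classes gave the same picture with 1 exception. Exons of 100 nt or less held 15.7% of peaks (length share 14.5%), those over 100 and up to 150 nt held 29.2% (25.7%) and those over 150 and up to 200 nt held 18.8% (19.1%). Exons over 200 and up to 400 nt held fewer, 12.8% against 17.1%, while those over 1000 nt held 15.9% against 15.4%. The median exon length was 161 nt (quartiles 118 and 334), the median exon number 7 and the median number of exons in the transcript 15. Strength was alike across classes. The median lower fold was 1.92 in internal exons over 400 nt, 1.90 in shorter internal exons, 1.92 in last exons and 1.89 in first exons. A fold of 5 or more in both replicates was reached by 1 peak in internal exons over 400 nt (Dst) and by 10 in shorter ones.

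The 10 longest internal exons with a peak belonged to Map1a (8104 nt), Srrm2 (6569 nt), Prune2 (6550 nt), Map1b (6490 nt), Dst (5292 nt), Brca2 (4809 nt), Arhgap35 (3872 nt), Polq (2981 nt), Bcor (2847 nt) and Tnrc6c (2601 nt). Each held 1. In Map1a, a microtubule-associated protein, the folds were 1.87 and 1.83, and in its relative Map1b they were 3.71 and 3.39. In Srrm2, a scaffold of nuclear speckles, they were 3.29 and 3.55. In Brca2, which acts in homologous recombination, they were 3.79 and 1.86. Only Dst was above 5 in both replicates, and only Dst, Map1b and Srrm2 were above 3 in both.

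Distances to exon ends were short, and so were most exons. The midpoint lay a median of 39 nt (quartiles 17 and 79) from the nearer exon end, against 43 nt for the length of the same transcripts, and the interval of the median, 36 to 43, reached that value. In each replicate's own list the median was also 39 nt (38 to 40). Length medians there were 43 nt for replicate 1 and 45 nt for replicate 2, so that those midpoints lay slightly nearer to exon ends than length gives. The midpoint was within 50 nt of an exon end in 353 peaks (60.3%). Of all 585, 139 (23.8%, 20.5 to 27.4) ran past an exon end into intron, 86 past the 5' end and 55 past the 3' end with 2 counted in both. The length share of that measure was 20.9%. All coding peaks of replicate 1 gave 22.9% and those of replicate 2 gave 22.6%, with length shares of 19.6% and 19.3%. In 41 peaks (7.01%) the midpoint was exonic in only some of the basic transcripts that span it.

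Along the coding sequence, with the start codon at 0 and the stop codon at 1, the median position was 0.43 (interval 0.40 to 0.47) against 0.45 for length. The 50% nearer the start codon held 330 peaks (56.4%, 52.4 to 60.4) with a length share of 55.2%. Over 10 equal bins, bin 8 held the most above its length share, 13.7% against 10.3%, and bin 9 the most below it, 6.15% against 9.10%. Within 150 nt after the start codon lay 56 peaks (9.57%, 7.45 to 12.2), beside a length share of 10.3%. The rule removes positions near the stop codon, from which the low share of bin 10 follows. Just inside its limit lay peaks on Fbxo8, Adgrg1 and Etv4, each 152 nt from a stop codon, and just outside lay Pqbp1 at 150 nt, Gpi1 at 148 nt and Irf8 at 146 nt.

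**Figure D5:**
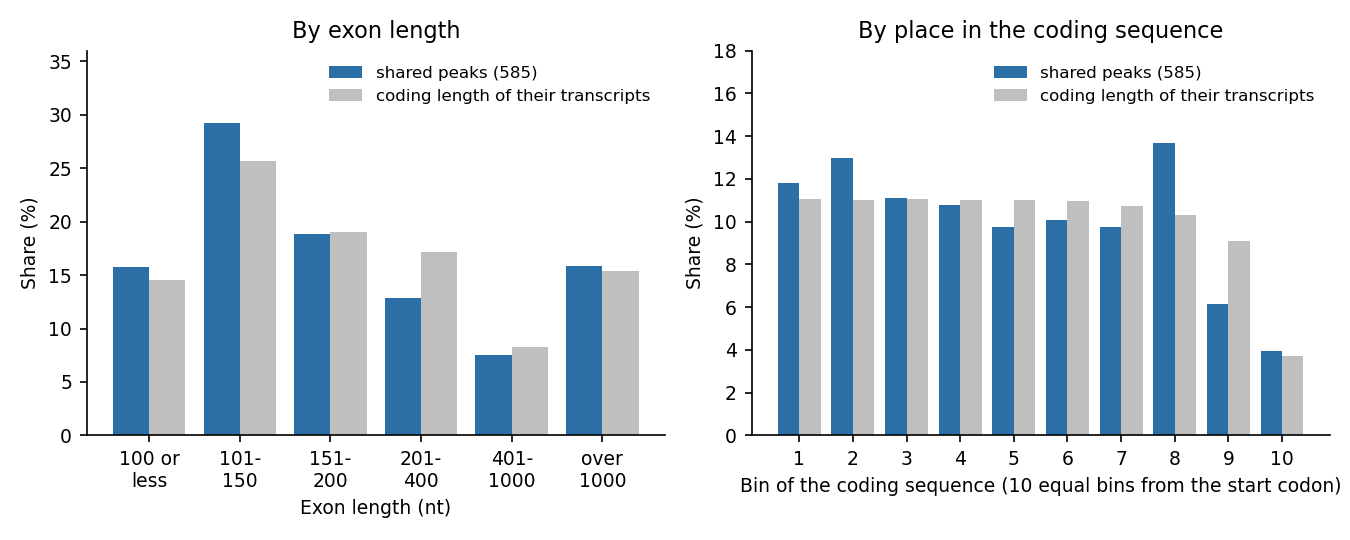
Share of the 585 shared coding peaks and of the eligible coding length of their transcripts (y axes, percent) by exon length in nt (left) and by 10 equal bins of the coding sequence from the start codon (right). Peaks and length lie close in most classes, with 12.8% against 17.1% in exons over 200 and up to 400 nt and 13.7% against 10.3% in bin 8.

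Most genes had a single shared coding peak. There were 463 genes with 1, 40 with 2, 7 with 3, 1 with 4, 2 with 5 and 1 with 7. Of the 514, 287 also had a shared intronic peak, 54 also had one in the 3' UTR and 201 had no other shared peak. Beside Thbs1 and Tnc, 4932438A13Rik had 5 peaks spread over 5 exons of 86, with a lower fold between 1.83 and 1.95 in each. Utp20, a factor of ribosome biogenesis, had 4, with a lower fold between 1.83 and 2.88. Having several peaks thus went with strong folds in Thbs1 and not in these genes, which are long and held 142 and 132 peaks in all (4932438A13Rik) and 90 and 58 (Utp20) in replicates 1 and 2.

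Among the genes with 3, Canx, which encodes the endoplasmic reticulum chaperone calnexin, had folds of 6.76 and 3.04 in exon 8, 7.96 and 3.202 in exon 10 and 4.61 and 3.07 in exon 7. All 3 of its shared peaks lay in coding sequence and replicate 1 was higher at each. Rlf had all 3 in its last exon of 5140 nt, with 4.58 and 4.44, 3.69 and 3.95, and 5.54 and 2.68. Fancm, a helicase of the Fanconi anaemia pathway, had 2 of its 3 in exon 14 of 1864 nt, at 3.69 and 4.49 and at 3.69 and 2.63. In Myo9b, an unconventional myosin, the strongest had 4.14 and 4.66 and ran past the end of exon 15. Lrp2 and Dock9 stayed below 3 in at least 1 replicate at every peak.

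Gene lists were read against all genes with coding peaks in both replicates, of which 506 of 4132 (12.2%) had a shared one. Cytoskeletal and scaffold giants had the highest count of the lists, 7 of 24 (29.2%), on Dst, Ahnak, Map1a, Map1b, Myh10, Utrn and Huwe1. Ahnak, a very large scaffold protein, had folds of 5.21 and 2.74 within a last exon of 17498 nt, and Huwe1, a ubiquitin ligase, had 3.52 and 4.02 in exon 43 and 3.31 and 2.63 in exon 41. A count per gene takes no account of coding length, which is long in that list.

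Chromatin regulators gave 1 of 28. That list is a selection of 32 genes and leaves out others that act on chromatin, among them Brd2, which held 2 shared coding peaks. Chd2 is the 1 counted, and Setd5 also held a shared coding peak but had 0 replicate 1 peaks that met the same rule. Folds were 5.02 and 4.93 in the last exon of Setd5 and 1.82 and 2.38 in Chd2. Extracellular matrix genes gave 2 of 12 (Col4a2 and Tnc). The matrix list does not hold Thbs1, Thbs2 or Thbs3, which had 7, 1 and 3 shared coding peaks. Adhesion and guidance genes gave 2 of 16 (Slit2 and Plxnd1), cell cycle genes 2 of 19 (Bub1b and Rrm1) and chaperones 1 of 10 (Canx). SR and speckle proteins gave 1 of 4 (Srrm2), m6A machinery 1 of 6 (the reader Ythdc2, 1.94 and 1.85) and genes of amyotrophic lateral sclerosis and frontotemporal dementia 1 of 3 (Optn, an autophagy receptor, 1.92 and 1.86). The 1 histone gene with coding peaks in both replicates, Hist1h2bb, had a shared one at 3.16 and 3.29. Translation factors and voltage-gated calcium channels gave 0 of 5 each, hnRNPs 0 of 1, and no ribosomal protein gene had coding peaks in both. These counts are small and were not tested.

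The labelled cell type was checked by whether marker genes had a peak anywhere. Neuron markers had one for 7 of 8 genes in each replicate, with none on Nefl, and neural progenitor markers for 4 of 5. Markers of other cells had peaks too, for 3 of 4 astrocyte and 3 of 4 oligodendrocyte genes in each replicate, 4 and 3 of 4 microglial genes and 2 and 4 of 4 endothelial genes, with none on Gfap and Olig2. Shared coding peaks were on 0 of these 29 genes. A peak does not measure expression, so that these counts do not tell which cell types the RNA came from.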

How the data were processed

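The peak lists of both WT CLIP libraries and their shared list were used. The submitters' processing notes name mm10 as the build, deepTools 3.2.1, HOMER 4.11.1, bedtools 2.25.0, MACS2 2.1.1.20160309 and Novoalign 3.09.00, without order or settings. The authors deposited, for each peak, a score (10 times the −log10 p, rounded down), a ratio (the fold over background) and the −log10 p itself; the peak names carry a p threshold of 0.005. No source used here says how peaks got their strand or whether input was the control. A deposited count table and its summary were left out, because the names of their 16 library columns could be tied to no sample.

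Repeated lines (267229 of 654978 in replicate 1, 237090 of 581790 in replicate 2) were removed, which left 387749 and 344700 distinct peaks. Each shared peak was a replicate 2 peak covered to at least 50% by a replicate 1 peak, as recomputed for all 16399. Midpoints were placed on GENCODE M21 basic, and exons were read from the transcript with the best APPRIS rank and then the longest coding sequence. Shares have Wilson 95% intervals; no test was run. Placement was tested on simulated peaks. The members and gene lists were chosen with earlier results of these data known. Genes named are the 20 peaks of highest lower score, genes with 3 or more, list members, the 10 longest internal exons, the peaks beside the 150 nt limit and the 5 widest replicate ratios, with values for some. Alternatives covered placement, transcript choice, overlap, fold, exon length, single replicates and motif windows. Tools were bedtools 2.31.1 and Python 3.11.15 with matplotlib 3.10.9, scipy 1.17.1, pandas 2.3.3 and numpy 2.4.6.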

Additional observations from a re-analysis of the deposited data

How the results depend on the processing

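Of 65 alternative values, 43 were classed as close to the reported ones and 22 as moved. For counts, close was a wide class. The 585 shared coding peaks numbered 439 when every base had to lie in coding sequence and 691 when any base did, and both were classed as close. No paired analysis was possible because the results come from peak lists of 1 condition with no test between groups. The replicate 2 coding peaks in the shared list went from 4.35% to 7.48% with any overlap of 1 bp, to 3.85% with 50% of both peaks covered and to 11.3% where the −log10 p was at least 5. The peaks with a fold of 5 or more in both replicates (12) numbered 2 at a fold of 10, 7 without Thbs1 and 17 to 32 when a single replicate was asked. The median lower fold of 1.91 was 1.95 to 2.38 in single replicates. Internal exons over 400 nt (11.1%) became 8.55% at a limit of 600 nt. Among the 12 strong peaks they held 8.33%, the median distance to an exon end was 65 nt and the median position 0.65. In the 7 of those that lie within their exon, GAC and DRACH occurred in 71.4%, UUUUU in 14.3% and GAAGAA in 0%. Peaks with 20 nt added on each side held GAC in 69.6%, DRACH in 82.7%, UUUUU in 6.67% and GAAGAA in 6.50%, over longer sequences. The GAC density of 54.9 per kb in strong shared peaks was 26.3 to 31.8 in all strong coding peaks of a single replicate. The alternatives without Thbs1 and the GAC density by fold were chosen after seeing the data. Depth is unknown, and 12 strong peaks on 8 genes limit what can be said of them.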
